A study of Rattus norvegicus with 9 samples.

Results

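Transcripts of 6 neuropeptide genes, read by 7 probe sets, were followed through sexual maturation of the female rat hypothalamus: Nts, Gal, Vip, Cck, Grp and Adcyap1. They were taken by name, as every probe set whose platform annotation gives 1 gene symbol and gives that of a listed gene, and they made up 7 of 31042 probe sets on the array and 6 of 14217 genes with such a name. Nts, Gal, Vip, Cck and Grp had 1 probe set each and Adcyap1 had 2. Hypothalami of normally developing females were profiled on Affymetrix arrays in juvenile animals at day 26, which the labels call controls, in early pubertal animals at day 29 and, at day 31, in late pubertal animals. There were 3 arrays at each stage, and the labels describe each as 1 hypothalamus of 1 animal, so replicates are animals. No strain, treatment or genetic change is named in the labels. A whole hypothalamus mixes many neuron types, and in such tissue fewer cells of a type and less RNA per cell cannot be told apart.

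Neuropeptides are cut from larger precursor proteins, stored in dense-core vesicles and released to act on G protein-coupled receptors of nearby or distant neurons. Nts encodes neurotensin, Gal galanin, Vip vasoactive intestinal peptide, Cck cholecystokinin, Grp gastrin-releasing peptide and Adcyap1 the adenylate cyclase activating peptide PACAP. In the rodent hypothalamus, neurotensin neurons lie in the preoptic and lateral areas, galanin is made by preoptic, arcuate and some GnRH neurons, and Vip and Grp mark retinorecipient neurons of the suprachiasmatic nucleus, the central circadian clock. Vip neurons of that nucleus contact GnRH neurons, PACAP acts in the ventromedial nucleus and on the pituitary, and Cck is made in several hypothalamic nuclei and abundantly in cortex.

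Values are given as log2 of the deposited signal plus 16 after quantile normalization between arrays, called log2 level here. Median deposited signal ran from 79.8 to 122 over the 9 arrays and array trimmed means differed by up to 1.42 times. All 7 probe sets passed the signal filter, a mean over the 9 arrays above the 40th percentile of probe sets, which lay at a log2 level of 6.30. Early pubertal replicate 8 stood apart from the other arrays in 1 respect: it was the lowest of the 9 arrays for 2294 of 10600 genes, 21.6% of them, against 7.40% to 13.2% for each of the other 8. The 7 probe sets were tested in the same limma fit as all 18625 probe sets above the filter. In each of the 3 comparisons between stages limma with Benjamini-Hochberg adjustment called 0 of the 7 probe sets at an adjusted p under 0.05, and 0% of all tested probe sets. By the F test over the 3 stages it called 0 as well, with an unadjusted F p under 0.05 for 1 of the 7, Nts at 0.0239, and for 4.22% of all.

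Promoter sequence is shown for Nts, whose early pubertal arrays lay above all others, for Vip, which spread most over the arrays, and for Grp, whose late pubertal arrays all lay below the juvenile ones. The windows hold 250 bases before and 50 after the annotated start and come from RefSeq on build GRCr8, which held 5 of the 6 genes. Capitals mark matches, on either strand, to the cAMP response element TGACGTCA, that element with any base in its centre (TGACNTCA), its half-site TGACG, which the full element contains, the AP-1 site TGANTCA, the oestrogen response element half-site AGGTCA and the TATA box TATAAA.
Nts promoter, chr7:39460839-39461138, minus strand: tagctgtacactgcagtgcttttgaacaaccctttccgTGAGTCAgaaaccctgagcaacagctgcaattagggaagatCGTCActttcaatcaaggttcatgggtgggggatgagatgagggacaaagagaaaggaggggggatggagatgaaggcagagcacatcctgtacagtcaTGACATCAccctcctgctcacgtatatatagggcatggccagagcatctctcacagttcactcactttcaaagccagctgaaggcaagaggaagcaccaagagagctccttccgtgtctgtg
Vip promoter, chr1:44470230-44470529, plus strand: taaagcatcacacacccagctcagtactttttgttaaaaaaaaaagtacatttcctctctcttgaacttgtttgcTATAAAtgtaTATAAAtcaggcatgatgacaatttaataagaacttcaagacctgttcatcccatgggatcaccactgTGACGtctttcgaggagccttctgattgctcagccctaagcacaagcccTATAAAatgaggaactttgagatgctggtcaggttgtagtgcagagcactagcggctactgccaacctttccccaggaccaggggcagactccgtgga
Grp promoter, chr18:61658405-61658704, plus strand: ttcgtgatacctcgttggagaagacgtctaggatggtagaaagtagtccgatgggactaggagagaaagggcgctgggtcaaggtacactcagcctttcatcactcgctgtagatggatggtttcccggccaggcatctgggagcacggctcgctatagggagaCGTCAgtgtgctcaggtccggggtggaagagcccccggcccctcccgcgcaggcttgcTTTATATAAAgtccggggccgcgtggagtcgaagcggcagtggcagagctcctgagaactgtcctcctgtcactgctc

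The Nts window held an AP-1 match, TGAGTCA, beginning 212 bases before the start, a cAMP half-site on the minus strand at 171 and TGACATCA at 72 bases before it. AP-1 matches occur in 7.33% of all 33469 RefSeq rat promoter windows and TGACNTCA, which also takes in TGACGTCA, in 10.2%. The half-site TGACG, present in 21.2% of windows, was found in Nts, Gal, Vip and Grp and not in Adcyap1. TATAAA, present in 14.2% of windows, was found in Gal, Vip, Grp and Adcyap1; in Grp it matched on both strands, 2 overlapping matches that print as 1 run of capitals. The windows of these 5 genes held no TGACGTCA, present in 1.83% of all windows, and no AGGTCA, present in 16.2%. These are matches of letters only, and binding was not measured.

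Neurotensin had the smallest p between stages among the 7 probe sets, although it did not pass the test over all probe sets. In juveniles 1, 2 and 3 the Nts log2 level was 8.55, 8.22 and 8.16. It was 8.72, 8.63 and 8.60 at early puberty (replicates 7, 8 and 10) and 8.25, 8.39 and 8.30 at late puberty (replicates 12, 14 and 20), and values below keep this order of animals. All 3 early pubertal arrays were higher than all 6 others, and juvenile replicate 1 was the highest of the rest. Stage means were 8.31 ± 0.21 at day 26, 8.65 ± 0.06 at day 29 and 8.31 ± 0.07 at day 31 (SD, n = 3 each). The log2 difference was 0.34 ± 0.12 (SE) for early pubertal minus juvenile animals, a 1.26-fold ratio, with an unadjusted limma p of 0.0162 and an adjusted p of 0.994. For late minus early pubertal animals it was −0.33 ± 0.12, with an unadjusted limma p of 0.0166 and an adjusted p of 0.914. Late pubertal and juvenile animals differed by 0.0018 (95% interval −0.26 to 0.26).

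All 3 early pubertal values lay above the other 6 for 194 of 18625 tested probe sets, or 1.04%, and below them for 232, or 1.25%. An unadjusted p under 0.05 for early pubertal against juvenile animals was reached by 1 of the 7 members, Nts, and by 4.46% of all tested probe sets. Between late and early pubertal animals the same threshold was reached by 1 of 7, again Nts, and by 5.21%, and between late pubertal and juvenile animals by 0 of 7 and by 4.14%. Stages that did not overlap were seen for 1 of the 7 in the higher direction (Nts, against 3.86% of all) and 0 in the lower (4.43%) between early pubertal and juvenile animals. Between late pubertal and juvenile animals 0 of 7 were fully higher (5.9%) and 1 fully lower (Grp, 5.52%), and between late and early pubertal animals 1 was fully higher (Cck, 5.97%) and 1 fully lower (Nts, 5.37%). The Nts rank by p was 239 of 18625 in early pubertal against juvenile animals, and 300 in late against early pubertal animals. The deposited Nts signals were 422, 299 and 268 in juvenile, 398, 328 and 304 in early pubertal and 283, 322 and 351 in late pubertal animals. Those signals overlapped between all stages, and at the deposited level the early pubertal minus juvenile difference was 0.07, where the median over all tested probe sets was −0.24. The late minus early pubertal difference was −0.10 at that level, beside a median of 0.22.

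**Figure D1:**
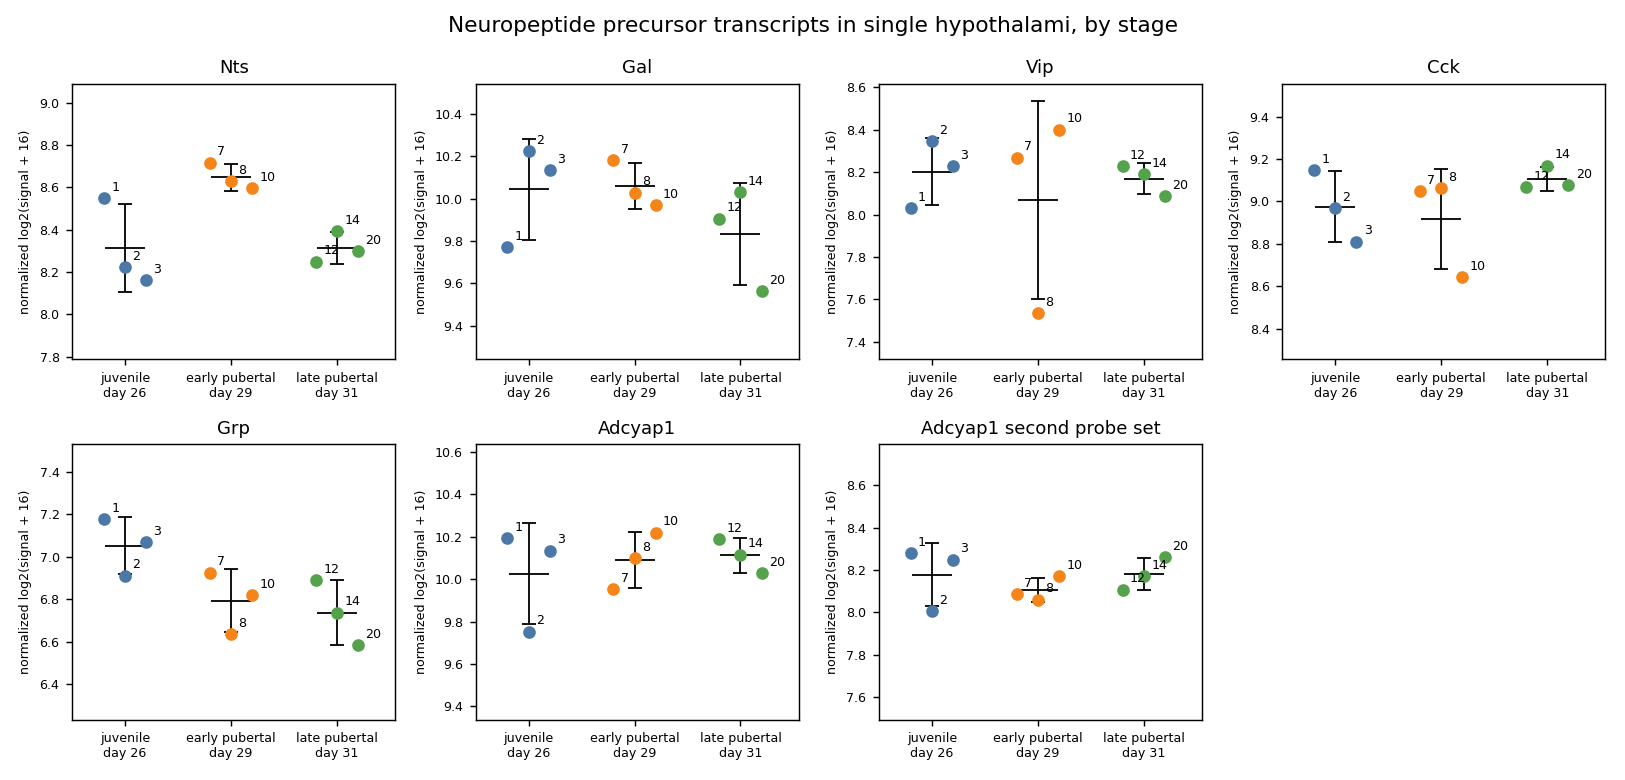
Normalized log2(signal + 16) of the 7 probe sets in each of the 9 arrays (points, numbered by replicate), by stage in order of age, with stage means and SD (bars, n = 3). Nts at day 29 sits at 8.60 to 8.72, above every juvenile and late pubertal array, and Vip is low in early pubertal replicate 8 at 7.53.

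Gastrin-releasing peptide was lower at both pubertal stages than in juveniles by point estimate. In juveniles the Grp log2 level was 7.18, 6.91 and 7.07. At early puberty it was 6.93, 6.63 and 6.82, and at late puberty 6.89, 6.74 and 6.58. The 3 late pubertal arrays lay below the 3 juvenile arrays, with late pubertal replicate 12 and juvenile replicate 2 nearly touching, while early pubertal replicate 7 overlapped the juveniles. The late pubertal minus juvenile difference was −0.32 ± 0.16 (SE, n = 3 per stage; 95% interval −0.67 to 0.03), with an unadjusted limma p of 0.0714 and an adjusted p of 0.9998. The early pubertal minus juvenile difference was −0.26 ± 0.16, with an adjusted limma p of 0.994. Grp was dim, with deposited signals from 75.4 to 146, and no detection calls were used. How much of its signal was background was not tested. The size of its late pubertal minus juvenile difference depended on the constant added before taking logs. It was −0.36 with a constant of 1 and −0.23 with 64.

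Galanin, which in rodents is made by GnRH neurons among others, had no separation between stages. In juveniles the Gal log2 level was 9.77, 10.22 and 10.14. At early puberty it was 10.18, 10.03 and 9.97, and at late puberty 9.91, 10.03 and 9.56. Late pubertal replicate 20 was the lowest array and juvenile replicate 1 the next lowest, so the lowest values fell in both stages. The late pubertal minus juvenile difference was −0.21 ± 0.14 (SE, n = 3 per stage; 95% interval −0.51 to 0.09), and the late minus early pubertal difference was −0.23 ± 0.14 (−0.53 to 0.07). Early pubertal and juvenile animals differed by 0.02 ± 0.14. The limma adjusted p values were 0.9998, 0.914 and 0.998 in that order. Single arrays moved these values: without late pubertal replicate 20 the late pubertal minus juvenile difference was −0.08 and the late minus early pubertal difference −0.09. The late pubertal minus juvenile difference was −0.35 without juvenile replicate 1 and −0.12 without juvenile replicate 2, and the early pubertal minus juvenile difference was −0.12 without juvenile replicate 1 and 0.11 without juvenile replicate 2. Deposited Gal signals ran from 832 to 1231.

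Vasoactive intestinal peptide varied most over the arrays, by 0.87 on the log2 scale from lowest to highest, and the lower end of that range came from a single animal. In juveniles the Vip log2 level was 8.03, 8.35 and 8.23. At early puberty it was 8.27, 7.53 and 8.40, and at late puberty 8.23, 8.19 and 8.09. Early pubertal replicate 8 lay 0.50 below the next lowest array, whereas the other 8 arrays spanned 0.37, and both the highest and the lowest array were early pubertal. Its deposited Vip signal was 149, against 265 to 326 in the other arrays. The early pubertal minus juvenile difference was −0.13 ± 0.19 (SE, n = 3 per stage; adjusted limma p 0.994) and 0.13 without early pubertal replicate 8. The late minus early pubertal difference was 0.10 ± 0.19 (adjusted limma p 0.961) and −0.17 without that array. Late pubertal and juvenile animals differed by −0.03 ± 0.19 (95% interval −0.46 to 0.39).

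Markers of the suprachiasmatic nucleus were split in that animal, with some lowest there and others not. Of 11 markers listed, 7 passed the filter, and early pubertal replicate 8 was the lowest of the 9 arrays for 4 of the 7, as it was for 21.6% of all 10600 genes. The clock-nucleus regulator Zfhx3 had a log2 level of 9.26 there, against 9.59 to 9.81 in the other 8 arrays, and Rgs16, a regulator of G protein signalling, had 7.55 against 7.95 to 8.55. Vasopressin (Avp), which magnocellular neurons also make, had 11.16 against 11.51 to 12.12, and Rasd1, a Ras-like protein, had 8.14 against 8.21 to 8.74. The other 3 were not lowest in that array: the nuclear receptor Rorb was higher there than in all 8 others, at 7.04 against 6.35 to 6.82, and the homeobox factors Lhx1, at 7.27 against 6.77 to 7.37, and Six6, at 7.03 against 6.90 to 7.51, lay within the range of the others. Over all 7 markers the mean deviation was −0.24 in early pubertal replicate 8, and it ran from −0.11 to 0.16 in the other 8 arrays. Their summed normalized signal was 4703 to 6287 in juvenile, 3673 to 6089 in early pubertal and 5054 to 6344 in late pubertal animals. Avp weighs most in that sum, with a mean log2 level of 11.80, where the next brightest, Zfhx3, had 9.65. Low values in early pubertal replicate 8 were not particular to these markers. Oxytocin (Oxt), which is not among them, had 10.39 there, against 11.44 to 12.42 in the other 8 arrays. Oxt was picked from 6 tested hypothalamic neuron markers. Their mean deviation in that array was −0.06, inside the range of −0.23 to 0.16 of the other 8 arrays. The genes of this paragraph, other than Zfhx3 and Rasd1, were named after their values were seen. Whether tissue content accounts for the low Vip value was not tested.

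**Figure D2:**
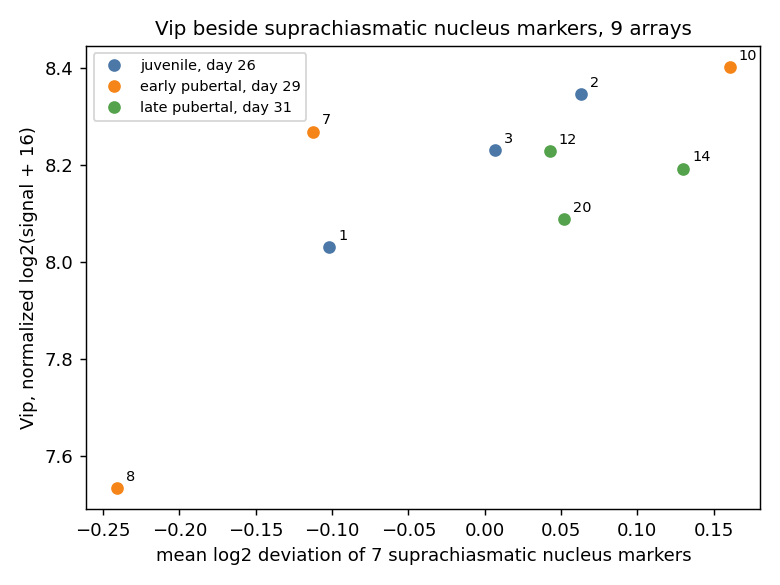
Vip log2 level (vertical axis) against the mean log2 deviation of 7 suprachiasmatic nucleus markers (horizontal axis) in the 9 arrays, numbered by replicate and coloured by stage. Early pubertal replicate 8 is lowest on both axes, at 7.53 and −0.24.

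Between late and early pubertal animals cholecystokinin was higher in all 3 arrays, by a narrow margin. In juveniles the Cck log2 level was 9.15, 8.97 and 8.81. At early puberty it was 9.05, 9.06 and 8.64, and at late puberty 9.07, 9.17 and 9.08. The late pubertal arrays lay above the early pubertal ones but inside the juvenile range except for replicate 14. Late minus early pubertal animals differed by 0.19 ± 0.13 (SE, n = 3 per stage; 95% interval −0.09 to 0.47; adjusted limma p 0.914), and by 0.05 without early pubertal replicate 10. The late pubertal minus juvenile difference was 0.13 ± 0.13 and the early pubertal minus juvenile difference −0.06 ± 0.13, which was 0.08 without early pubertal replicate 10. Cortex makes much Cck, and 2 of 7 listed cortical markers passed the filter: Nrgn, a calmodulin-binding protein, differed by −0.31 ± 0.17 between late and early pubertal animals and the kinase Camk2a by 0.07 ± 0.15. The summed signal of these 2 genes was 822 to 1130 in juvenile, 885 to 1185 in early pubertal and 764 to 955 in late pubertal animals. Slc17a7, Neurod6, Tbr1 and Neurod2, which define cortical glutamate neurons, lay below the filter. A cortical part in the Cck values was not tested.

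For Adcyap1, the PACAP gene, all stages overlapped and its probe sets differed in sign at early puberty. In juveniles the Adcyap1 log2 level on the brighter probe set was 10.19, 9.75 and 10.13. At early puberty it was 9.95, 10.10 and 10.22, and at late puberty 10.19, 10.12 and 10.03. On the second probe set the values were 8.28, 8.01 and 8.25 in juveniles, 8.08, 8.06 and 8.17 at early puberty and 8.11, 8.17 and 8.26 at late puberty. Juvenile replicate 2 was the lowest of the 9 arrays on both probe sets, and stages overlapped throughout. The early pubertal minus juvenile difference was 0.06 ± 0.12 (SE, n = 3 per stage) on the brighter and −0.07 ± 0.11 on the second probe set. The late pubertal minus juvenile difference was 0.09 ± 0.12 (95% interval −0.17 to 0.34) and 0.0017 ± 0.11. The late minus early pubertal difference was 0.02 ± 0.12 and 0.07 ± 0.11. All limma adjusted p values lay between 0.950 and 0.9998. Over the 9 arrays both probe sets correlated at Pearson r = 0.59 (exact permutation p 0.0874) and Spearman rho = 0.58 (exact permutation p 0.108), and r was −0.10 without the 2 arrays farthest from the median, so the relation rests on those arrays.

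**Figure D3:**
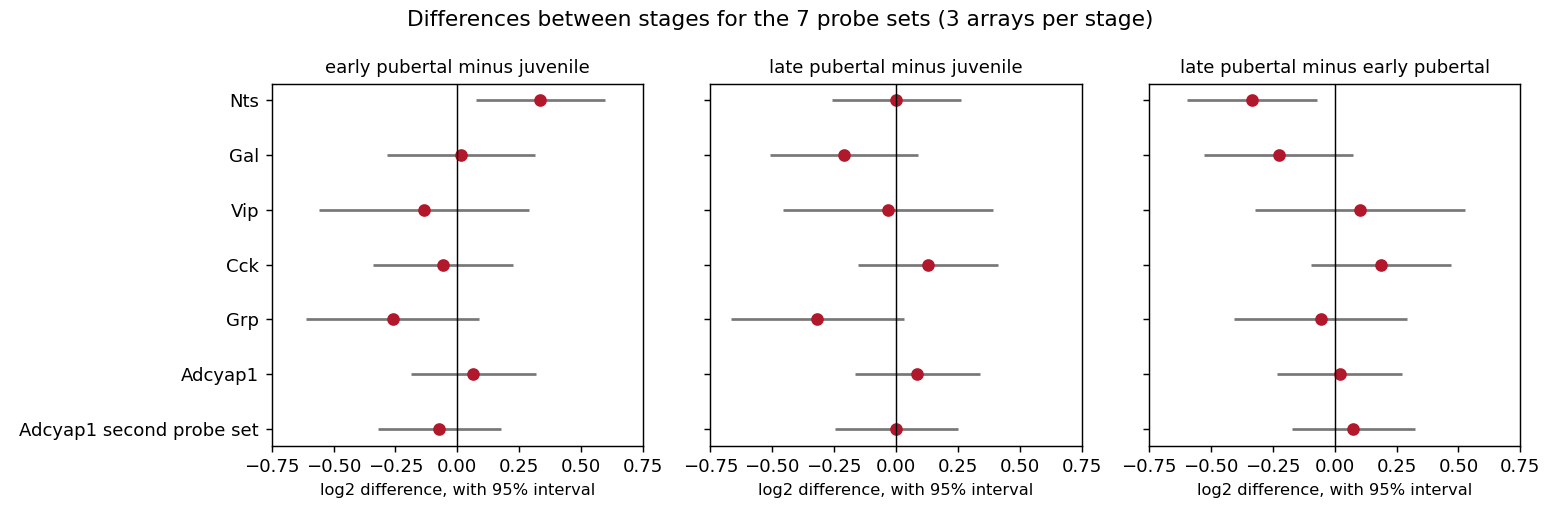
Log2 differences between stages (points) with 95% intervals of the limma fit (lines) for the 7 probe sets, 1 panel per comparison and 3 arrays per stage. The Nts intervals, 0.07 to 0.60 for early pubertal minus juvenile and −0.59 to −0.07 for late minus early pubertal, leave out 0 before adjustment over all probe sets; the other intervals include it.

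Set together, 3 of the 7 probe sets were higher and 4 lower in early pubertal than in juvenile animals, with a median log2 difference of −0.06. Late pubertal minus juvenile gave 4 higher and 3 lower with a median of 0.0017, and late minus early pubertal gave 4 and 3 with a median of 0.02. The median over all tested probe sets lay within 0.0015 of 0 in each comparison, and the median absolute difference over all was 0.10, 0.09 and 0.10. These comparisons share arrays: the juvenile arrays enter both differences from day 26, and the early pubertal arrays enter with opposite signs.

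Among the 6 genes, 0 pairs passed a test of varying together over the animals. Each gene was taken by its brightest probe set and the 15 pairs were correlated over the 9 arrays. Pearson r ran from −0.44 for Vip and Cck to 0.35 for Vip and Grp, with 7 of 15 positive. Exact permutation p was above 0.05 for all 15 by Pearson r, with 0 pairs called and a lowest Benjamini-Hochberg adjusted p of 0.908. Vip and Cck had a Spearman rho of −0.73 (exact permutation p 0.0311, adjusted 0.467) and an r of −0.44 (exact permutation p 0.212), which was −0.68 without the 2 arrays farthest from the Vip median and −0.59 within stages. Vip and Grp, which both mark suprachiasmatic neurons, had rho = 0.27 (exact permutation p 0.493) and r = 0.35 (exact permutation p 0.364), or 0.50 without the 2 farthest arrays. At the deposited level, which carries each array's overall brightness, 14 of 15 pairs were positive, with r up to 0.60.

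**Figure D4:**
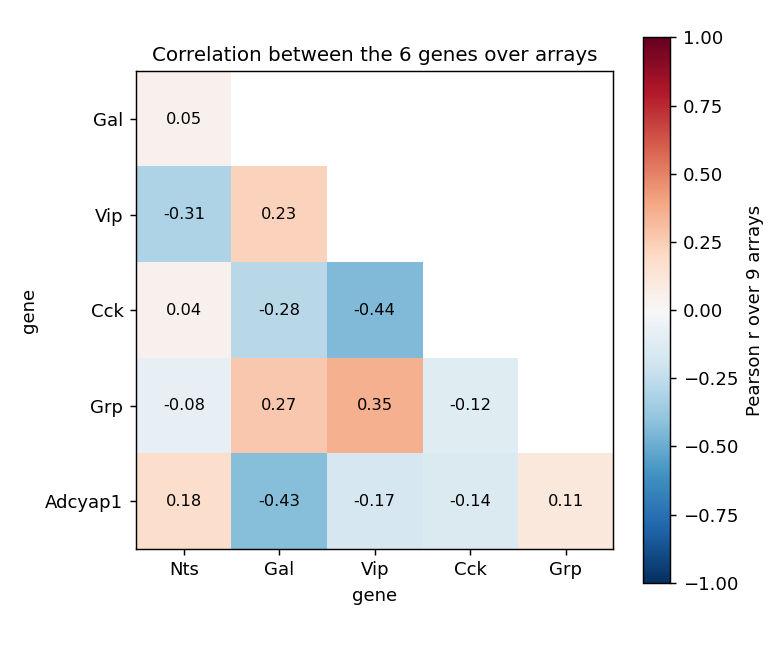
Pearson correlation of normalized log2 level over the 9 arrays for each of the 15 pairs of genes, on a colour scale from −1 to 1. Values run from −0.44 for Vip and Cck to 0.35 for Vip and Grp.

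The transcripts most like each gene over the 9 arrays were taken as those with the highest Pearson r among 10599 other genes, and high values arise readily in so large a search. Nts was closest to Hand2, a bHLH transcription factor, at r = 0.92 (rho 0.90), and to Fdps, the cholesterol synthesis enzyme farnesyl diphosphate synthase, at r = 0.91 (rho 0.93), and both stayed at 0.91 without the 2 arrays farthest from the Nts median. Fdps had log2 levels of 10.66, 10.52 and 10.41 in juvenile, 10.76, 10.88 and 10.81 in early pubertal and 10.55, 10.55 and 10.59 in late pubertal animals, with the early pubertal arrays above the other 6. Because Fdps was picked for following Nts over these same arrays, that order cannot serve as separate evidence of a stage pattern. Gal was closest to Mgst2, a microsomal glutathione transferase, at 0.92 and to Ranbp17 at 0.91, which were 0.81 and 0.89 without the 2 farthest arrays. Vip was closest to Txndc17, a thioredoxin-like protein, at 0.98 and to Fahd2a at 0.97, and these were 0.85 and 0.92 without the 2 arrays farthest from the Vip median, of which early pubertal replicate 8 is one. Over all 9 arrays, that one included, 30 genes exceeded 0.9 with Vip, against 4 for Nts. Grp was closest to Cox8a, a subunit of cytochrome c oxidase, at 0.97 and to Dcaf12l1 at 0.96, or 0.93 and 0.95 without the 2 farthest arrays. Adcyap1 was closest to Ssr1, a translocon-associated protein, at 0.97 and to RT1-T24-3 at 0.96, or 0.81 and 0.83 without the 2 farthest arrays. For Cck the closest were Eea1, an early endosome protein, at 0.96 and the phosphatase Ptpn3 at 0.93, but without the 2 farthest arrays these were 0.76 and 0.55. Some of these transcripts were dim. RT1-T24-3, Ptpn3 and Ranbp17 had mean log2 levels of 6.34, 6.37 and 6.47, beside the filter level of 6.30, and Hand2 had 6.74.

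Receptors for these peptides were read next, from a list of 12 genes of which 11 were on the array with 1 symbol and 6 passed the filter. Limma called 0 of the 6 in each comparison, as it called 0% of all tested probe sets. Ntsr2, the neurotensin receptor of astrocytes, had log2 levels of 11.47, 11.51 and 11.51 in the late pubertal arrays, against 11.36, 11.31 and 11.34 in the juvenile arrays, and the late pubertal arrays lay above all 6 others. Its late pubertal minus juvenile difference was 0.16 ± 0.05 (SE, n = 3 per stage; unadjusted limma p 0.0126, adjusted p 0.9998) and its late minus early pubertal difference 0.11 ± 0.05. Late pubertal arrays lay above all juvenile arrays for 5.9% of tested probe sets and above all early pubertal arrays for 5.97%. The share above all 6 others was not counted. Astrocyte markers were higher for 5 of 7 in late pubertal than in juvenile animals, with a median of 0.07. The others were lower, Slc1a3 at −0.07 and Gja1 at −0.04. Aldh1l1, which marks astrocytes, differed from juveniles by 0.31 ± 0.11 in late and by 0.33 ± 0.11 in early pubertal animals. Gjb6, of the same list, differed from juveniles by 0.27 ± 0.09 in late and by 0.18 ± 0.09 in early pubertal animals. Ntsr2 differed by 0.05 ± 0.05 between early pubertal and juvenile animals. The part of astrocyte content in the Ntsr2 value was not tested.

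Ntsr1, the high-affinity neuronal neurotensin receptor, was read at 7.66, 6.99 and 6.79 in late pubertal animals, against 7.82, 8.06 and 7.25 in early pubertal animals. Those stages overlapped, and the difference was −0.57 ± 0.26 (SE, n = 3 per stage; unadjusted limma p 0.0490, adjusted p 0.914). Ntsr1 stood at 0.29 ± 0.26 for early pubertal minus juvenile animals, a difference that uses the same early pubertal arrays, and at −0.28 ± 0.26 for late pubertal minus juvenile animals, where Nts stood at 0.0018. Sort1, the sorting receptor sortilin that also binds neurotensin, differed by −0.10 ± 0.10 between early pubertal and juvenile animals on its brightest probe set and by 0.21 on its other.

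Adcyap1r1, which encodes the PACAP receptor PAC1, had 4 probe sets above the filter. For late pubertal minus juvenile animals they gave 0.17, 0.08, 0.42 and 0.25 from brightest to dimmest, and for early pubertal minus juvenile animals 0.11, 0.13, 0.48 and −0.04. The brightest had an SE of 0.08 and a limma adjusted p of 0.9998 in late pubertal animals. Galr2, a galanin receptor, gave 0.25 ± 0.20 and −0.06 on its 2 probe sets for late pubertal minus juvenile animals, which have opposite signs. Cckbr, the main brain cholecystokinin receptor, gave −0.03 ± 0.22. The receptors Galr1, Galr3, Vipr1, Vipr2 and Grpr lay below the filter and have no test here, and Cckar is not analysed here.

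**Figure D5:**
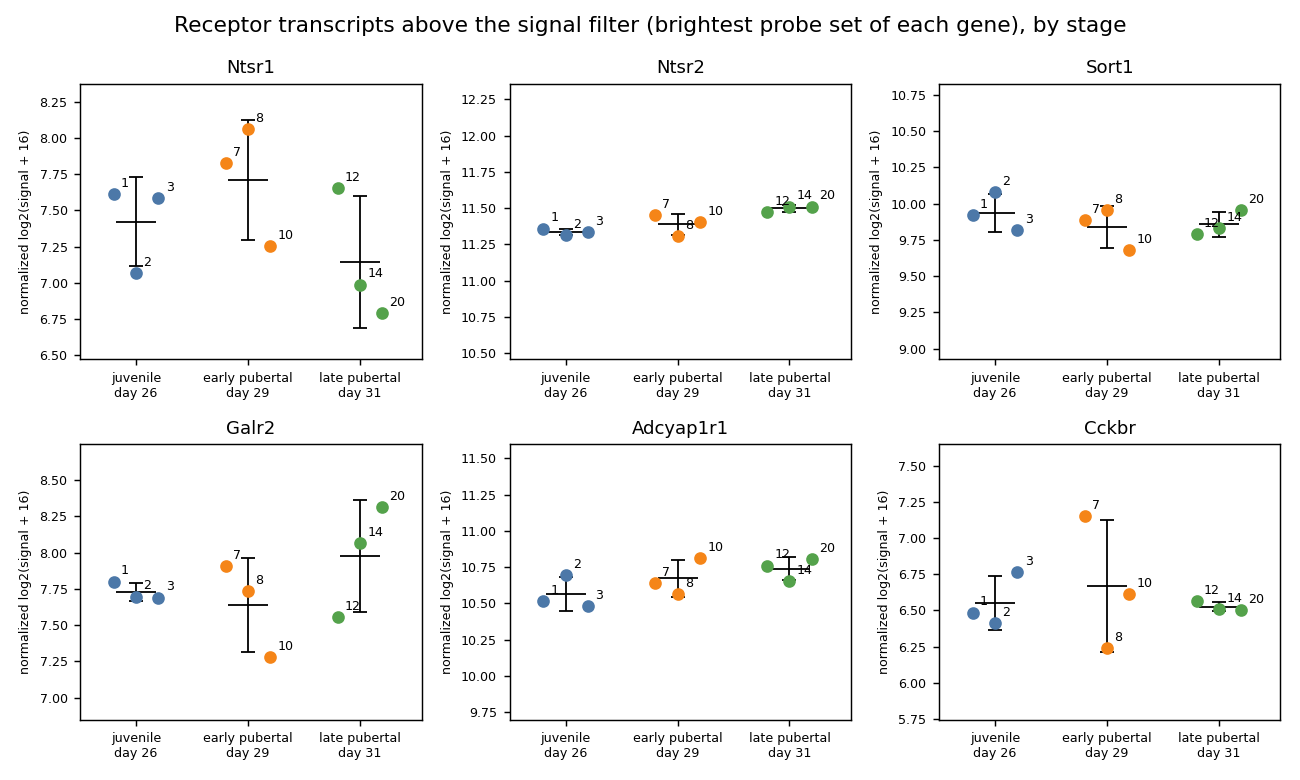
Normalized log2(signal + 16) of 6 receptor genes in the 9 arrays by stage in order of age (points, numbered by replicate; bars, mean and SD, n = 3). Ntsr2 in late pubertal arrays lies at 11.47 to 11.51, above the other 6 arrays, and Ntsr1 ranges from 6.79 in late pubertal replicate 20 to 8.06 in early pubertal replicate 8.

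Ligands and receptors of the same families were 6 higher and 1 lower among 7 tested in early pubertal than in juvenile animals, with a median log2 difference of 0.16 against −0.0014 over all tested probe sets, and limma called 0. In late minus early pubertal animals, a comparison that uses the same early pubertal arrays, 1 was higher and 6 lower, with a median of −0.15. Their mean log2 deviation was −0.24, 0.09 and 0.08 in juvenile, 0.23, 0.04 and −0.06 in early pubertal and 0.01, −0.10 and −0.04 in late pubertal animals. Juvenile replicate 1 was the lowest array and early pubertal replicate 7 the highest, while early pubertal replicates 8 and 10 lay below juvenile replicates 2 and 3. Nmbr, the neuromedin B receptor and paralog of Grpr, differed by −0.47 ± 0.21 between late pubertal and juvenile animals, and by −0.43 ± 0.21 between early pubertal and juvenile animals. Ghrh, growth hormone-releasing hormone of the Vip family, differed by 0.29 ± 0.20 between early pubertal and juvenile animals. Most of the 7 were near the filter level. Among prohormone processing genes 3 of 5 tested were higher and 2 lower at both pubertal stages than in juveniles, 0 called by limma. Pcsk1n, the inhibitor proSAAS, differed by 0.19 ± 0.09 between early pubertal and juvenile animals, and Pam, which amidates peptides such as galanin and Vip, by 0.13 ± 0.06.

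Markers of other cells were read beside the peptide genes. Thalamic markers were lower for 4 of 4 tested in early pubertal than in juvenile animals. Their summed signal was 1232 to 1371 against 1492 in all 3 juvenile arrays. The kinase Prkcd differed by −0.42 ± 0.15 and the transcription factor Tcf7l2, the brightest of the 4, by −0.17 ± 0.10. The other differences were near 0, at −0.02 ± 0.15 for Lef1 and −0.06 ± 0.13 for Rora. Leptomeningeal markers were higher for 8 of 8 at both pubertal stages, with sums of 6776 to 8740 in juvenile, 7279 to 10607 in early pubertal and 8458 to 9651 in late pubertal animals. Fmod, a proteoglycan, differed by 0.40 ± 0.12 between late pubertal and juvenile animals and Mgp, the matrix Gla protein, by 0.36 ± 0.14. General neuron markers were lower for 7 of 7 in late pubertal than in juvenile animals, with a median of −0.13. They were lower for 5 of 7 in early pubertal animals. Syt1 differed from juveniles by −0.42 ± 0.15 in late and −0.23 ± 0.15 in early pubertal animals. Rbfox3 differed by −0.0037 ± 0.08 in late and −0.20 ± 0.08 in early pubertal animals, and Snap25 by −0.002 ± 0.05 in late pubertal animals. Hypothalamic neuron markers were lower for 5 of 6 in late pubertal than in juvenile animals, with a median of −0.12, including Nkx2-1, a factor of hypothalamic patterning, at −0.09 ± 0.12 and hypocretin (Hcrt) at −0.14 ± 0.31. Suprachiasmatic markers were higher for 7 of 7 in late pubertal than in juvenile animals, with a median of 0.05, among them Rasd1 at 0.21 ± 0.16 and Zfhx3 at 0.01 ± 0.10. Striatal, pituitary and choroid plexus lists had 3, 4 and 2 tested genes, with medians from −0.07 to 0.13 in late pubertal minus juvenile animals. Limma called 0 genes in these lists, and their part in the peptide values was not tested.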

How the data were processed

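Deposited intensity values per probe set had been made by the authors with MAS5, per the submitters' processing notes. Its version and target level were not given in the sources used here. Of 31099 rows, 57 controls were left out. Signals were taken as log2(signal + 16), quantile-normalized and fitted with limma 3.58.1 in R 4.3.3 over all 9 arrays, with 1 mean per stage and a variance prior that follows intensity (degrees of freedom 5.80 prior, 6 residual). Tests were two-sided, and p-values were adjusted by Benjamini-Hochberg over the 18625 probe sets of each comparison. The fit was tested on simulated data. Symbols came from the platform annotation: 20826 probe sets have 1, 436 several and 9780 none here. Of those with 1, 20758 matched a RefSeq record. Correlations used exact permutation of all pairings in Python 3.11.15. The number of arrays limits the precision.

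The genes and lists were chosen with earlier results of these data known. Named genes were all members, all receptors, up to 2 genes per other list by the smallest F p, and the 2 transcripts most like each member. From some lists further genes were named beside these. The alternatives were constants of 1 and 64, the deposited level, median centring, no filter or one at the 60th percentile, no trend, a robust prior, array weights, only the 6 arrays compared, a threshold of 0.1 and leaving out each array. No batch, date or pairing is given in the labels, and none was modelled.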

Additional observations from a re-analysis of the deposited data

How the results depend on the processing

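Across 19 alternative settings, 0 of 396 recomputed differences of the 7 probe sets passed the limma threshold, with a lowest adjusted p of 0.259. Of the 21 differences, 10 kept their sign under every setting run and 11 changed sign under at least 1. The 10 included both Nts differences that involve day 29 and the late pubertal differences of Gal, Cck and Grp from juvenile animals. Changing the filter or the variance prior, or fitting only the arrays compared, cannot alter a difference of means. A sign kept under those settings is no test of it. Leaving out an array of the stage not compared acts only through renormalization. Without a late pubertal array the Nts difference of early pubertal from juvenile animals was 0.3347 to 0.3363, against 0.3354 in the main fit. The Nts difference of early pubertal from juvenile animals ran from 0.07 at the deposited level to 0.45 without juvenile replicate 1, and that of late from early pubertal animals from −0.37 to −0.10. Grp was not tested with the filter at the 60th percentile. Over all probe sets limma called 0 in each comparison and 831, 772 and 971 at an unadjusted p under 0.05 (early pubertal minus juvenile, late pubertal minus juvenile, late minus early pubertal), and 0 by the F test with 786 unadjusted. At the deposited level it called 10, 1, 21 and, by F, 16, with 1 higher and 9 lower, 1 higher, and 21 higher, beside median differences of −0.24, −0.02 and 0.22. With array weights it called 1 for late pubertal minus juvenile animals. Leaving out 1 array gave 0 to 1 there and 0 to 1 by F, the 1 without juvenile replicate 2, and 0 in the other comparisons. None of these calls was a member, and the cause was not tested. Among pairs of members, 0 were called at the deposited level and with stage means removed. No paired analysis was run, because each array is a separate animal and the labels give no pairing. Low signal limits Grp and the receptors below the filter.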
